A study of Mus musculus with 24 samples.

Results

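The mRNAs of 9 subunits of the Polycomb repressive complexes were followed through 3 mouse cell populations: Ezh1, Ezh2, Eed, Suz12, Jarid2, Mtf2, Cbx2, Cbx7 and Cbx8. They were chosen by name among the 51912 genes of the count tables, with earlier results of these data known. Polyadenylated RNA was sequenced from 9 libraries, 3 per group. ESC are wild-type TC-1 embryonic stem cells (ESCs; strain C57BL/6 X 129S5) grown with LIF, and NP are neuronal progenitors (NPs) that the study made from these ESCs by aggregation and retinoic acid. TETTKO are ESCs with knockout of TET1, TET2 and TET3, the dioxygenases that oxidise 5-methylcytosine. They are a separate line (strain C57BL/6 X 129/sv), so that genotype, strain and line cannot be told apart in that comparison. NPs are a bulk population, in which fewer cells of a type and less RNA per cell cannot be told apart.

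Polycomb repressive complex 2 (PRC2) methylates histone H3 at lysine 27. Its catalytic subunit is either EZH2, the more active enzyme and the usual one in dividing cells, or EZH1, and both need EED and SUZ12 to work. Accessory proteins define alternative forms of the complex: MTF2 (a Polycomb-like protein) belongs to PRC2.1 and JARID2 to PRC2.2. Canonical PRC1 reads the methyl mark through a single CBX chromodomain protein. CBX7 is known as the main CBX protein of mouse ESCs, and CBX2 and CBX8 are known to replace it when these cells differentiate.

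Promoter windows from RefSeq (GRCm38.p6, 250 bases before to 50 after the gene start) were matched for 8 of the 9 genes. All 8 held more CpG dinucleotides than the median of 7 over 27025 windows of the same length. They ran from 17 in Eed, more than in 68.1% of all windows, to 41 in Suz12, more than in 96.7%. The windows are shown for the catalytic pair Ezh1 and Ezh2, and for Cbx7 and Cbx8, which changed in opposite directions in NPs. They are written 5′ to 3′ on the strand of the gene with each CpG in capitals. The Cbx7 window lies inside the gene extent of the count tables, which reaches to 79971119 on chromosome 15. The Ezh2 window and that of Jarid2, which is not shown, also lie inside the gene extents given below. For these genes RefSeq and the counted gene model use different starts.
Ezh1, chr11:101226414-101226713, minus strand: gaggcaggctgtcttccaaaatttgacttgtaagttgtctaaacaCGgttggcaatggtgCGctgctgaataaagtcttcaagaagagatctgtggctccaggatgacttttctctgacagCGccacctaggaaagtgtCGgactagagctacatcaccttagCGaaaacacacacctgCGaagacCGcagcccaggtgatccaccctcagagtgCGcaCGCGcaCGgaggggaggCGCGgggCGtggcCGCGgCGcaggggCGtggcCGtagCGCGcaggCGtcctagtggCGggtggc
Ezh2, chr6:47594981-47595280, minus strand: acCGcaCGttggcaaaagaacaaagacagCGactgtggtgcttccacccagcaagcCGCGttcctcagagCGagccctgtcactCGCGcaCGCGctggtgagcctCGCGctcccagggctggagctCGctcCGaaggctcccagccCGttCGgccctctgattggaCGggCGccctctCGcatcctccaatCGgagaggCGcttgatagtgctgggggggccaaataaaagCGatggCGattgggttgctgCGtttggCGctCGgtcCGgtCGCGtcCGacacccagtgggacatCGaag
Cbx7, chr15:79932597-79932896, minus strand: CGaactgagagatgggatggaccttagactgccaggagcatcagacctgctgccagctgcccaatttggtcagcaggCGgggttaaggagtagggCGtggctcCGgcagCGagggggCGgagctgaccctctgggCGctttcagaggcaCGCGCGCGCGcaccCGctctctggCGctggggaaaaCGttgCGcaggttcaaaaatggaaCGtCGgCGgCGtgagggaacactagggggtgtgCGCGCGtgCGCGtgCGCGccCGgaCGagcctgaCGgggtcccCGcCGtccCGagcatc
Cbx8, chr11:119040864-119041163, minus strand: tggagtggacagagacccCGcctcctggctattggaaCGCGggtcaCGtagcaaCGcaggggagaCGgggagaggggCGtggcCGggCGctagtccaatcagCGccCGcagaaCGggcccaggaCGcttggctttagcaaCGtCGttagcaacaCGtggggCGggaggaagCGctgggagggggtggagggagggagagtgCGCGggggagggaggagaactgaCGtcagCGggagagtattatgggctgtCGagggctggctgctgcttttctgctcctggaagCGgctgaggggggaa

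The E2F-type motif TTTNGCGC, searched on both strands, was in 1.38% of all windows and, among the 8, in that of Ezh2 alone. It stands there at bases 254 to 261 of the window as TTTGGCGC, counted from 1 at the 5′ end. The octamer ATGCAAAT, bound by OCT factors such as the pluripotency factor OCT4, was in 1.75% of all windows and in none of the 8. Ezh1 and Ezh2, whose mRNA levels did not pass the test in either comparison, held 23 and 31 CpGs, Cbx7 held 33 and Cbx8 24.

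Total counts were 20570050 to 23976914 in ESC, 20519702 to 22132988 in NP and 80704741 to 93210102 in TETTKO. In TETTKO, Tet1 stood at 13.2, 16.1 and 11.3 RPKM (reads scaled by gene length and library size) against 65.9, 60.8 and 68.5 in ESC, and Tet2 at 2.42, 2.70 and 2.32 against 20.5, 20.3 and 16.1. Tet3 was at 0.474 to 0.617 RPKM in TETTKO and 0.631 to 0.770 in ESC. Tet1 and Tet2 were lower in all 3 TETTKO libraries, and since counts cover whole genes, the remaining reads do not check the targeted exons. In NP, all 10 ESC markers fell and all 10 neural progenitor markers rose. Markers of other cells were counted at an adjusted p below 0.001, by which 17.8% of all 15197 genes tested rose and 16.2% fell. Of neuron markers, 5 of 8 tested rose and 1 fell. Of endoderm markers, 3 of 4 tested rose (Sox17, Foxa2 and Gata6). For trophoblast markers, 2 of 5 tested rose and 2 fell, for fibroblast markers 1 of 4 rose, and for mesoderm markers 0 of 1 did. Genes were tested only where a library reached 1 RPKM. Markers below this in ESC, such as those 3 endoderm genes, were therefore tested only through NP.

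Do the mRNAs of the Polycomb machinery differ between ESCs and the NPs made from them? In these libraries Cbx7 mRNA fell and Cbx2 mRNA rose past it, with Cbx8 rising from near silence. Of the PRC2 genes, Eed, Suz12, Jarid2 and Mtf2 fell, and Ezh2 differed by 1.16-fold. A gene was taken as changed at an adjusted p below 0.001 and as called when it had also moved at least 3-fold. By this rule 7 of the 9 genes changed (2 rose and 5 fell), against 33.9% of all 15197 genes tested (17.8% rose and 16.2% fell). Of the 9, 6 were called (2 higher and 4 lower), against 22.3% of all genes (12.4% higher and 9.98% lower). At an adjusted p below 0.05, which 64.1% of all genes met (32.5% higher, 31.5% lower), there were 8 of 9, all but Ezh2. Cbx8 reached the minimum of 1 RPKM for testing in NP alone. Their median log2 fold change was −1.44, against 0.03 over all genes tested. RPKM ranges of the groups did not overlap for any of the 9, as for 71.9% of all genes tested. Together the 9 genes had a summed level of 398 to 438 RPKM in ESC and 174 to 189 in NP.

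**Figure D1:**
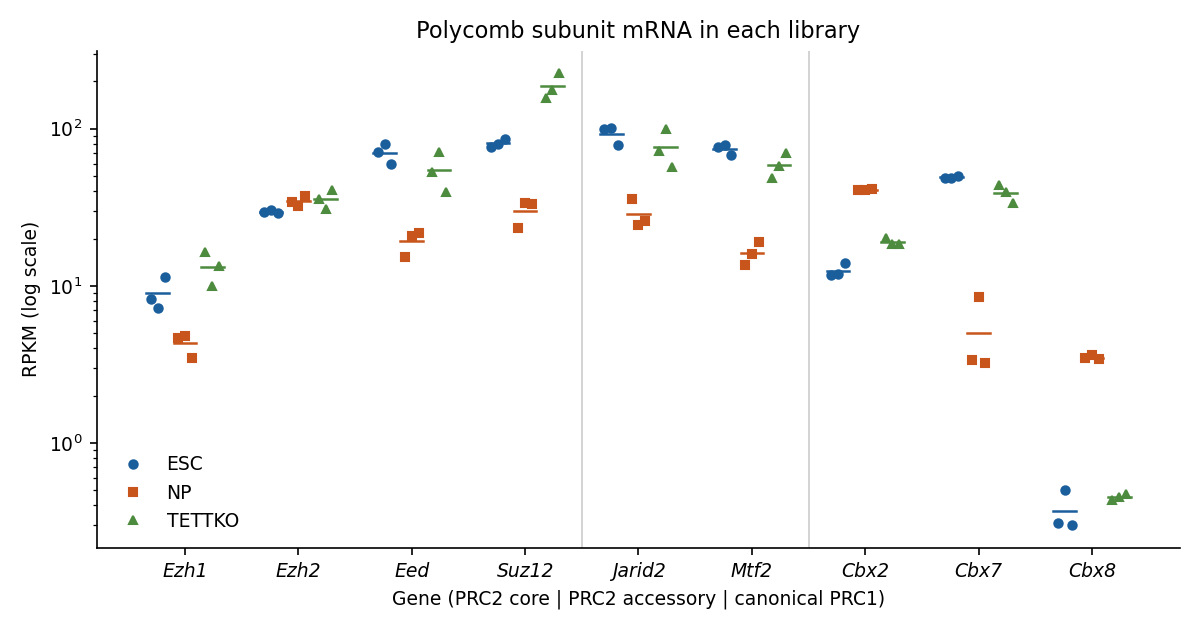
RPKM (log axis) of the 9 Polycomb genes in each of the 9 libraries, with circles for ESC, squares for NP and triangles for TETTKO, and a short line at each group's mean. The NP squares sit apart from the ESC circles for every gene, lowest relative to ESC for Cbx7 (5.03 against 49.1 RPKM on average) and highest for Cbx8 (3.49 against 0.368).

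Of the catalytic subunits, Ezh2 (chromosome 6, 47530139 to 47595341; all gene positions are on GRCm38) had 29.5, 30.3 and 29.1 RPKM in ESC and 34.3, 32.3 and 37.4 in NP. The NP values were slightly higher in all 3 libraries, with a log2 fold change of 0.21 ± 0.10 (SE) and an adjusted p of 0.11. Ezh1 (chromosome 11, 101191115 to 101226463) had 8.30, 7.27 and 11.3 RPKM in ESC and 4.67, 4.77 and 3.49 in NP. Every NP value was below every ESC value, yet the log2 fold change of −1.07 ± 0.19 had an adjusted p of 0.0013 and missed the limit of 0.001. DESeq2 put Ezh1 past this limit (adjusted p = 2e-06). Leaving out single libraries did not, with log2 fold changes between −1.21 and −0.89 over all alternatives.

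Ezh1 made up 22.0%, 19.4% and 28.02% of the summed RPKM of Ezh1 and Ezh2 in ESC and 12.0%, 12.9% and 8.53% in NP. The share differed by −12.0 percentage points (exact two-sided permutation test, p = 0.1, the smallest that 3 against 3 libraries allow). Ezh2 was thus the more abundant catalytic mRNA in both groups, by level per length. Ezh2 is commonly expressed together with cell cycle genes, and of 16 of these tested 0 rose and 5 fell, with 33.9% of all genes tested changed. At an unadjusted p below 0.05 there were 10, and DESeq2 put 6 past the limit, where 67.5% and 49.2% of all genes met these criteria. Ccne1 (cyclin E1) fell 3.77-fold, and the summed level of the 16 genes went from 1310 to 1344 RPKM in ESC to 926 to 1001 in NP. The part of cell cycle state in the Ezh2 level was not tested.

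The scaffold subunits fell. Eed (chromosome 7, 89954654 to 89980983), which binds the methylated histone tail, had 71.3, 80.3 and 59.7 RPKM in ESC and 15.3, 20.7 and 21.8 in NP. This was a 3.68-fold fall (log2 fold change −1.88 ± 0.17, adjusted p = 3.4e-05). Suz12 (chromosome 11, 79993106 to 80034123), which holds the core together, had 76.6, 80.0 and 86.0 RPKM in ESC against 23.4, 33.7 and 33.2 in NP. It fell 2.71-fold (log2 fold change −1.44 ± 0.16, adjusted p = 7.9e-05), short of the 3-fold limit. Both genes ran far above Ezh2 in ESC. In NP the ranges of Suz12 and Ezh2 overlapped, and Eed lay below both. Rbbp4 and Rbbp7, the histone chaperones of the core, were at 56.5 and 102 RPKM in NP against 53.5 and 115 in ESC, and neither passed the test. Of the 6 core genes, 2 fell and 0 rose, where 33.9% of all genes tested changed.

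Both accessory genes fell. Jarid2 (chromosome 13, 44729474 to 44921643) had 99.6, 101 and 78.8 RPKM in ESC and 35.7, 24.5 and 25.7 in NP, a fall of 3.29-fold (log2 fold change −1.72 ± 0.18, adjusted p = 6e-05). Mtf2 (chromosome 5, 108065674 to 108109004) had 76.4, 78.3 and 68.4 RPKM in ESC and 13.6, 15.9 and 19.1 in NP, a fall of 4.62-fold (log2 fold change −2.21 ± 0.15, adjusted p = 7.7e-06). NP replicate 1 had the highest Jarid2 and the lowest Mtf2, Eed and Suz12 of its group. As a share of the 2 genes, Jarid2 was 56.6%, 56.3% and 53.5% in ESC and 72.4%, 60.6% and 57.4% in NP. The NP shares lay above all ESC shares, by 7.99 percentage points on average (exact two-sided permutation test, p = 0.1, the smallest possible). Without NP replicate 1 the difference was 3.53 points, and without NP replicate 3 it was 11.0 points.

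Among all 8 tested accessory genes 4 fell and 1 rose, against 16.2% and 17.8% of all genes tested. Epop, which links PRC2.1 to Elongin, went from a mean of 248 RPKM to 27.1, a fall of 9.27-fold. Phf19, another Polycomb-like protein, went from 2.71 to 0.559 RPKM, a fall of 4.88-fold. Lcorl, a relative of Lcor, both of which encode PALI subunits of PRC2.1, was the gene that rose, from 0.765 to 1.78 RPKM. Its ESC mean was below the minimum of 1 RPKM for testing, so the filter on level favoured a rise. Phf1, the remaining Polycomb-like gene, was at 4.37 RPKM in ESC and 4.39 in NP, with an adjusted p of 0.98.

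The CBX genes moved in opposite directions. Cbx7 (chromosome 15, 79915807 to 79971119) had 48.4, 48.6 and 50.3 RPKM in ESC and 3.39, 8.47 and 3.25 in NP, from 6677 to 8019 counts down to 468 to 1335. It fell 9.87-fold (log2 fold change −3.30 ± 0.36, adjusted p = 7.7e-05), and without NP replicate 2 by 3.91 on the log2 scale. NP replicate 2, the highest in Cbx7, also had the highest sum of the 6 fibroblast markers (37.1 RPKM against 19.0 and 3.65) and the lowest of the 10 neural progenitor markers (403 against 609 and 468). Their part in the Cbx7 level was not tested. Cbx2 (chromosome 11, 119022962 to 119031270), a compacting CBX protein with a DNA-binding motif, had 11.7, 11.8 and 13.9 RPKM in ESC and 40.6, 40.9 and 41.4 in NP. It rose 3.26-fold (log2 fold change 1.71 ± 0.11, adjusted p = 5.4e-06), with NP libraries almost identical.

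Cbx8 (chromosome 11, 119036305 to 119040969) had 0.307, 0.498 and 0.299 RPKM in ESC, from 24 to 40 counts, and 3.45, 3.62 and 3.42 in NP, from 270 to 323 counts. The groups were far apart, and Cbx8 rose 9.39-fold (log2 fold change 3.23 ± 0.27, adjusted p = 2.1e-05). Its mean level in NP was at the bottom of the 9 genes together with Ezh1 and Cbx7. The ranges of all 3 overlapped, and Cbx7 was below Cbx8 in NP replicates 1 and 3. Cbx6 stood at 10.6 RPKM in ESC and 10.7 in NP, with a log2 fold change of 0.00 ± 0.11.

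**Figure D2:**
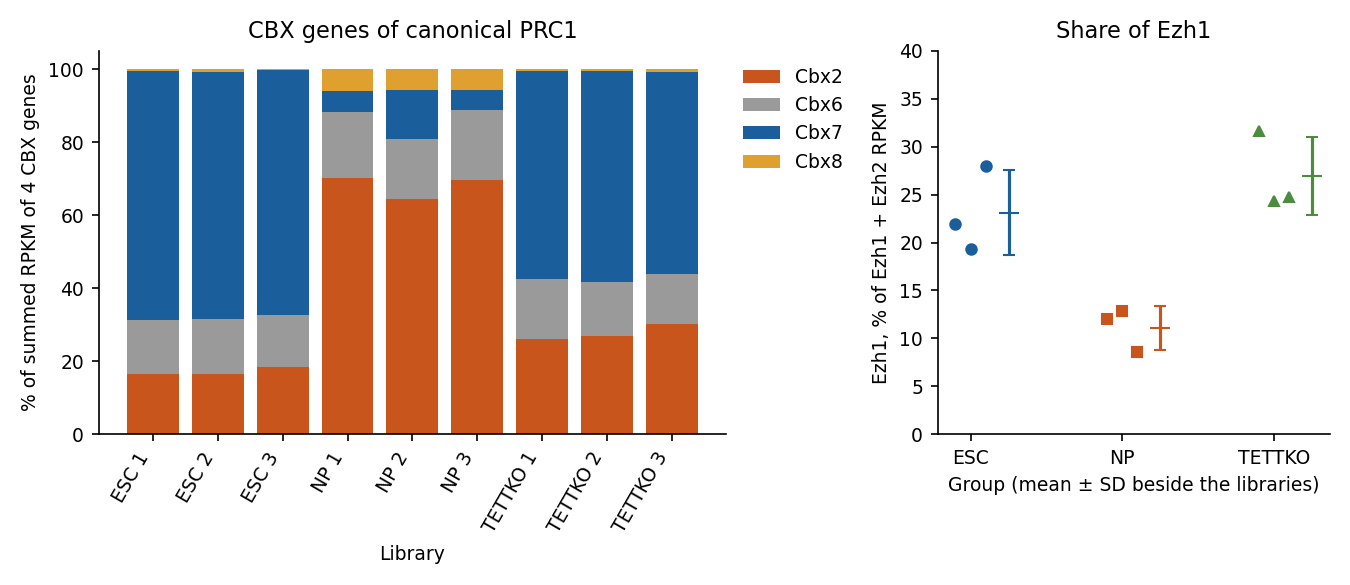
Left, share (%) of the summed RPKM of Cbx2, Cbx6, Cbx7 and Cbx8 taken by each gene, stacked per library. Right, share (%) of Ezh1 in the summed RPKM of Ezh1 and Ezh2 per library, with mean ± SD (n = 3) beside each group. Cbx7 took 66.8% to 68.4% of the sum of these 4 genes in ESC, 5.45% to 13.4% in NP and 55.2% to 57.5% in TETTKO.

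Shares within the CBX mRNAs give the same comparison on a scale that does not depend on library scaling. Cbx7 made up 67.7% ± 0.793 (SD, n = 3) of the summed RPKM of Cbx2, Cbx6, Cbx7 and Cbx8 in ESC and 8.23% ± 4.46 in NP (exact two-sided permutation test, p = 0.1, the smallest possible). Cbx2 went from 17.1% to 68.1%, and Cbx8 from 0.509% to 5.81%, while Cbx6 held 14.7% in ESC and 17.8% in NP. Most of the share that Cbx7 left was therefore taken by Cbx2.

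Cbx2 and Cbx8, which both rose, are neighbours on chromosome 11 with 5034 bases between them. Cbx7 and Cbx6 lie 81118 bases apart on chromosome 15. Between them is Apobec3, which overlaps the end of Cbx7 in 100 bases and fell from 27.7 to 1.93 RPKM (log2 fold change −3.85 ± 0.39). On the far side of Cbx7, Pdgfb rose from 2.12 to 10.04 RPKM (log2 fold change 2.22 ± 0.26). Within 100000 bases of this pair 6 other genes were tested, of which 2 rose (Pdgfb and Dnal4) and 1 fell (Apobec3). Of all genes tested, 17.8% rose and 16.2% fell.

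Levels per length ranked differently in the 2 populations. In ESC, Jarid2, Suz12, Mtf2 and Eed led with ranges that overlapped from each to the next, followed without overlap by Cbx7, Ezh2, Cbx2, Ezh1 and Cbx8. In NP, Cbx2 led, apart from all others. Ezh2, Suz12 and Jarid2 came next and overlapped in that order, then Eed and Mtf2, and last Cbx7, Ezh1 and Cbx8, whose neighbours overlapped as well.

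The genes most like 3 of the 9 over all 9 libraries were found by Pearson's correlation of log2(CPM + 1) over 15613 genes. The points share libraries and group differences, so these values are a description. Cbx7 was most like Angptl4 (r = 0.996), Acan (0.996) and Slc9b1 (0.995). For Ezh1 they were Ube2o (0.995), Tnip1 (0.985) and Plod1 (0.985). Ezh2, with less difference between groups, reached lower values with Appl2 (0.946), Cnn3 (0.937) and Map4k4 (0.933).

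The rest of the Polycomb machinery was read from lists of genes by complex. Of 56 genes tested in 6 lists, which include the 9, 13 rose and 18 fell, with a median log2 fold change of −0.0036. Without the 9, 11 of 47 rose and 13 fell. Among all 15197 genes tested, 17.8% rose and 16.2% fell, the shares to set beside each list count. In canonical PRC1, 4 of 9 tested genes rose and 3 fell, with Cbx2, Cbx7 and Cbx8 among them. Outside the CBX family, Phc2 and Scmh1 rose, and Phc1 and Scml2 fell. Phc1, a polyhomeotic protein that polymerises the complex, fell 5.55-fold from 163 to 29.7 RPKM, and its paralog Phc2 rose 5.44-fold from 6.05 to 33.3 RPKM. Scml2 fell 6.16-fold. In the catalytic core, Ring1, an E3 ligase for histone H2A, rose 3.79-fold from 3.11 to 11.9 RPKM, and Bmi1 (PCGF4) rose 4.99-fold from 1.45 to 7.27 RPKM. Rnf2 (RING1B), the ligase known to dominate in ESCs, was at 33.7 RPKM in ESC and 34.6 in NP. Of the 8 genes of this list 2 rose and 0 fell in edgeR, where Pcgf6 came close (34.1 RPKM in ESC and 19.2 in NP, adjusted p = 0.0012). DESeq2 put 4 of them past the limit, Pcgf5 and Pcgf6 with lower levels in NP, and 7 had an unadjusted p below 0.05. Of all genes, 49.2% and 67.5% met these criteria. The adjusted p of Bmi1 was 0.00083 and reached 0.0039 over 14 alternatives, 9 of which kept it below 0.001.

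In variant PRC1, which works without a CBX protein, 3 of 17 genes rose and 7 fell, against 17.8% and 16.2% of all genes. RYBP and YAF2 are alternative subunits of these complexes. Rybp fell from 6.31 to 2.59 RPKM, whereas Yaf2 rose 7.10-fold from 3.49 RPKM. L3mbtl2 fell 5.18-fold, and Auts2, of a neural form of the complex, rose 3.46-fold. Among the enzymes that remove the marks and their partners, 3 of 8 rose and 2 fell, against the same shares. The H3K27 demethylase gene Kdm6b rose from 14.6 to 44.1 RPKM, and Asxl3 rose 3.58-fold from a low level, whereas Asxl1 and Asxl2 fell. Asxl3 reached the minimum of 1 RPKM for testing in NP alone, so the filter on level fixed its direction. Asxl3 stayed past the limit in 9 of 14 alternatives, with adjusted p up to 0.0027, and Auts2 and Scml2 did so in 11 of 14, with adjusted p up to 0.0014.

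**Figure D3:**
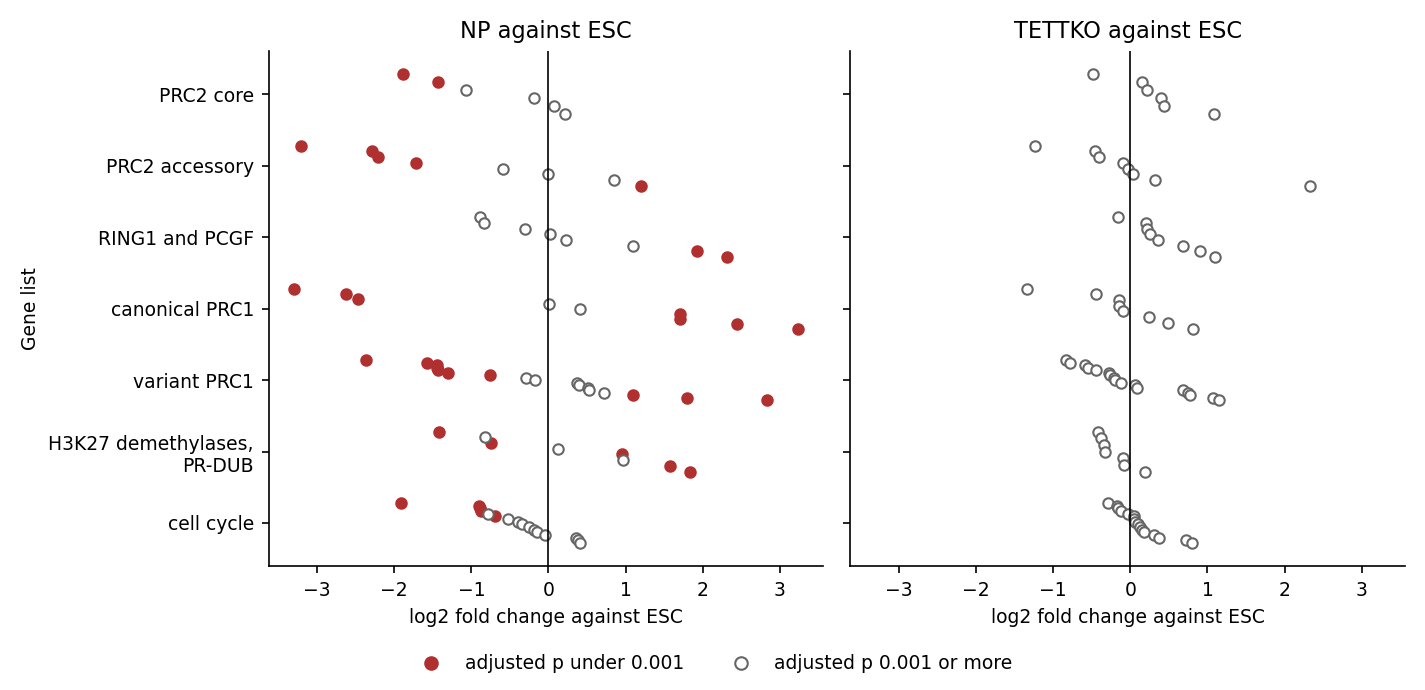
Log2 fold change against ESC of the genes in 6 lists of the Polycomb machinery and in a cell cycle list, 1 point per tested gene, for NP (left) and TETTKO (right) on the same axis. Filled points had an adjusted p below 0.001. In NP 31 of the 56 machinery genes are filled, on both sides of 0, against 33.9% of all genes tested. In TETTKO none of the 54 is, against 3.27%.

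Of 20 textbook targets of Polycomb, 11 rose in NP. Another 4 (Hoxa9, Hoxd10, Hoxd13 and Nkx2-2) were below 1 RPKM in every library of both groups and were not tested, and 5 were tested without passing, among them T (brachyury) at 0.787 RPKM in ESC and 0.217 in NP. Genes silent in ESC were tested only where they were on in NP, so the filter on level fixed the direction of most of these calls, and the count supports no statement about the list. Hoxa5 had 0 to 1 counts per ESC library and a mean of 50.3 RPKM in NP. Hoxb1 had 1 to 2 counts against a mean of 13.3 RPKM, and Pax3 had 0 to 3 counts against 9.44 RPKM. Hox genes are known to be activated by retinoic acid, and the link of these genes to the subunit levels was not tested. Tet1 and Tet2 fell 15.8-fold and 5.80-fold in NP, and Tet3 rose 10.8-fold.

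Does loss of the TET enzymes alter the same subunits in ESCs? This comparison shares the ESC libraries with the NP comparison. None of the 8 Polycomb genes tested passed the limit of 0.001 in edgeR, at which 3.27% of all 13939 genes tested changed (1.69% rose and 1.58% fell) and 2.14% were called (0.847% higher and 1.29% lower). At an unadjusted p below 0.05 there were 5 of 8, against 45.1% of all genes, and DESeq2 put 2 of 8 past the limit (Suz12 and Cbx2), against 20.5% of all genes. The median log2 fold change of the 8 was −0.13, against 0.02 over all genes. Groups did not overlap for 4 of the 8, where 51.8% of all tested genes had groups apart. Cbx8 was not tested, since it was below 1 RPKM in all 6 libraries.

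**Figure D4:**
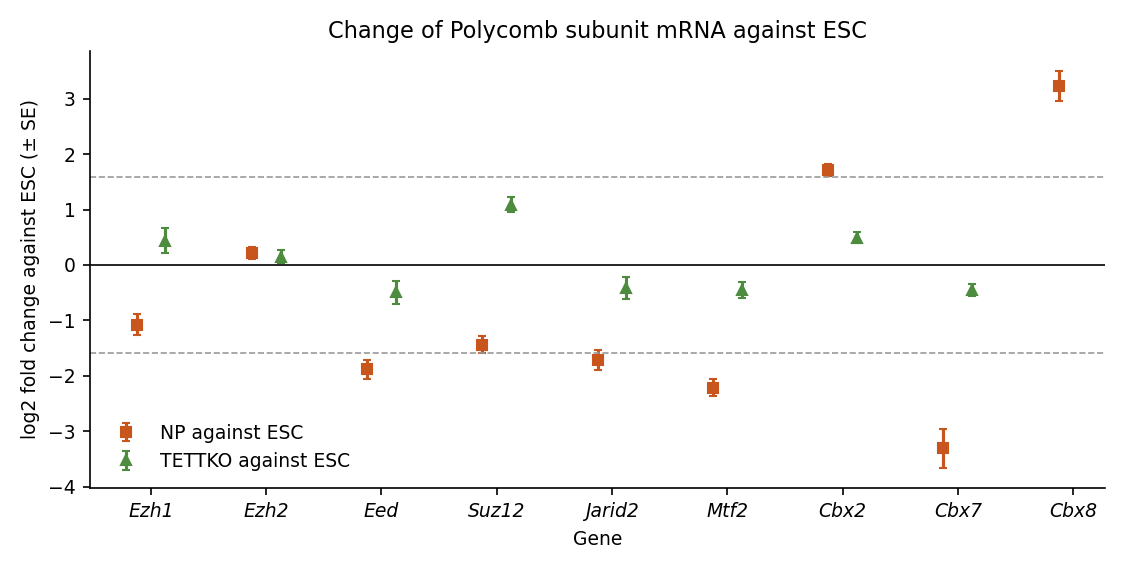
Log2 fold change ± SE against ESC of each of the 9 genes in NP (squares) and TETTKO (triangles), with dashed lines at 3-fold and Cbx8 not tested in TETTKO. The NP values run from −3.30 (Cbx7) to 3.23 (Cbx8), and the TETTKO values from −0.49 (Eed) to 1.09 (Suz12).

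Suz12 differed most. It had 158, 177 and 225 RPKM in TETTKO against 76.6, 80.0 and 86.0 in ESC, from 60093 to 96071 counts. All 3 TETTKO values were above all ESC values, by 2.13-fold (log2 fold change 1.09 ± 0.14, adjusted p = 0.0015). The limit was missed narrowly, and without TETTKO replicate 3, the highest library, Suz12 passed it with a smaller value of 0.93 (adjusted p = 0.00075). Suz12 led the TETTKO order by itself, with no overlap with the next gene.

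At an adjusted p below 0.05, which 33.6% of all genes tested met (17.6% higher and 16% lower), Cbx2, Mtf2 and Cbx7 joined Suz12. Cbx2 had 20.03, 18.5 and 18.6 RPKM (log2 fold change 0.49 ± 0.11, adjusted p = 0.011), above the ESC range. Cbx7 had 43.7, 39.4 and 33.9 RPKM (log2 fold change −0.45 ± 0.11, adjusted p = 0.017), below the ESC range. Mtf2 had 48.6, 57.8 and 69.9 RPKM (log2 fold change −0.46 ± 0.14, adjusted p = 0.043), and its range overlapped that of ESC. Cbx7 held 56.5% ± 1.18 (SD, n = 3) of the sum of the 4 CBX genes in TETTKO and Cbx2 27.8%. The Cbx7 share differed from ESC by −11.2 percentage points (exact two-sided permutation test, p = 0.1, the smallest possible). Cbx7 was thus still the leading mRNA of the 4 in all 3 TETTKO libraries.

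The other genes had smaller differences relative to their spread. Ezh1 was at 16.4, 9.92 and 13.3 RPKM and Ezh2 at 35.4, 30.8 and 40.5, with adjusted p-values of 0.16 and 0.36. Ezh1 overlapped the ESC range, and Ezh2 lay just above it. Ezh1 made up 31.6%, 24.4% and 24.8% of the pair (exact two-sided permutation test against ESC, p = 0.4). Eed had 52.6, 71.1 and 39.8 RPKM and Jarid2 71.9, 99.3 and 57.3, both highest in replicate 2 and lowest in replicate 3, and both overlapping ESC (adjusted p = 0.11 and 0.15). Jarid2 was 59.6%, 63.2% and 45.0% of the sum with Mtf2, a wider spread than in ESC (exact two-sided permutation test, p = 1). Cbx8 had 0.434, 0.454 and 0.470 RPKM, from 119 to 149 counts, within the ESC range of 0.299 to 0.498. The 9 genes summed to 447 to 505 RPKM in TETTKO.

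Of the 6 machinery lists, 46 tested genes are not among the 9, and none of them passed in edgeR. At an unadjusted p below 0.05 there were 24 of the 46, and DESeq2 put 11 past the limit, where 45.1% and 20.5% of all genes met these criteria. The widest differences were those of Phf19 (2.71 RPKM in ESC and 14.7 in TETTKO, log2 fold change 2.33 ± 0.32, adjusted p = 0.002) and, downward, of Scml2 (2.70 and 1.16 RPKM, −1.34 ± 0.27, adjusted p = 0.008) and Epop (248 and 114 RPKM, −1.24 ± 0.24, adjusted p = 0.0071). These 3 genes were picked after their values were seen. Of the 5 tested Polycomb targets, Cdkn2a alone was called. This cell cycle inhibitor locus, commonly repressed by Polycomb in ESCs, had 33.6, 20.04 and 17.6 RPKM in TETTKO against 4.17, 3.79 and 2.74 in ESC (log2 fold change 2.62 ± 0.30, adjusted p = 0.00096). The call was lost in 8 of 15 alternatives, with adjusted p up to 0.0065. None of the 16 cell cycle genes passed in edgeR (4 at an unadjusted p below 0.05, 3 by DESeq2, against 45.1% and 20.5% of all genes). Of 10 ESC markers 1, Zfp42, fell, against 1.58% of all genes tested. By the same 2 looser criteria 5 ESC markers had an unadjusted p below 0.05, and DESeq2 put 2 past the limit (Klf4 and Zfp42). Of mesoderm markers 1 of 3 tested rose (Hand1, past the limit in 9 of 15 alternatives), against 1.69% of all genes tested. Hand1 had a mean of 0.504 RPKM in ESC and reached the minimum of 1 RPKM for testing in TETTKO alone. The filter on level thus fixed its direction. None of 4 neural progenitor, 4 neuron, 4 trophoblast and 3 fibroblast markers tested passed in edgeR. At an unadjusted p below 0.05 there were 3, 3, 4 and 2 of these, and DESeq2 put 2, 2, 4 and 0 past the limit. Again 45.1% and 20.5% of all genes met these criteria. Of the trophoblast markers, Krt7 and Gata3 had means of 0.392 and 0.225 RPKM in ESC, below the minimum for testing. The summed trophoblast markers stood at 48.6 to 94.8 RPKM in TETTKO against 20.2 to 26.2 in ESC. The part of such cells in the values above was not tested.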

How the data were processed

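RNA-seq libraries (9 of the 24 samples of the series) were grouped by the labels. Per the study's methods and the file headers, reads from a stranded mRNA kit were trimmed with Trimmomatic 0.38, aligned with STAR 2.6.1b and counted without strand by featureCounts 1.6.2 on Ensembl 89 gene models. The deposited values are raw counts of the authors, 1 per gene and library. Genes that overlap on opposite strands therefore cannot be told apart. Methylation tables of the other 15 samples were not analysed here.

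Library sizes were adjusted with the TMM factors of edgeR 4.0.16 under R 4.3.3. RPKM were computed with the gene lengths of the files over the 9 libraries. NP and TETTKO were each compared with ESC by edgeR's quasi-likelihood test with Benjamini-Hochberg adjustment over all genes with at least 1 RPKM in at least 1 of the 6 libraries. SEs were derived from the fold change and the test statistic. DESeq2 1.42.0 was an alternative. Limits of 0.001 and 3-fold were those of the study. The labels do not say what separates replicates, so p-values measure the spread between these libraries. This spread was unequal. A chi-squared of counts per gene, which grows with depth, was 2.37 between ESC replicates 1 and 2. It was 14.0 and 19.7 for the other ESC pairs, 39.5 to 67.9 in NP and 109 to 194 in TETTKO. The procedure was tested on simulated data: for NP, with 15197 genes, 6% of 2-fold and 69% of 4-fold changes passed the limit, and for TETTKO, with 13939 genes, 12.9% and 74.8%.

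Shares were compared by exact two-sided permutation tests, and the CBX share was taken over 4 genes, a choice made after seeing the data. A gene of the canonical PRC1 list is not reported here. Symbols were matched for 51633 of 51912 genes. The 9 genes and all lists were chosen with earlier results of these data known. Of each other list, up to 3 rising and 3 falling genes are named, taken by size of change among called genes whose higher group had no library under 10 counts. Tet1, Tet2 and Tet3 are named too, as are the 3 genes most like Ezh1, Ezh2 and Cbx7. Other genes with values were added after these were seen. Alternatives were other scaling, filters, tools, limits, a block on replicate number, thinned TETTKO counts and leaving out each library. Figures were drawn with matplotlib 3.10.9.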

Additional observations from a re-analysis of the deposited data

How the results depend on the processing

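In NP, 7 Polycomb genes changed under every alternative but DESeq2, no filter on low counts and an adjusted p limit of 0.05, where Ezh1 was added. Over all genes, the NP count of 5157 changed became 8012 with no filter and 9738 at the limit of 0.05, and 2932 to 4668 when single libraries were left out. The 3396 called became 5281 with no filter and 2262 with at least 10 counts in every library.

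In TETTKO, no Polycomb gene passed in most alternatives. DESeq2 put 2 past the limit, no filter 1, the replicate block 1 and the limit of 0.05 put 4, and leaving out single libraries gave 0 to 1. The 456 changed genes became 2860 by DESeq2, 2432 with no filter, 908 with the replicate block and 4677 at the limit of 0.05, and 50 to 506 when single libraries were left out. The 298 called became 910, 1263, 589 and 1133 in the same order, and 50 to 294 without single libraries. The causes were not tested. With TETTKO counts thinned to the depth of ESC, 452 genes changed, no Polycomb gene passed and Suz12 had an adjusted p of 0.0014. The difference in the Jarid2 share between TETTKO and ESC, 0.50 points, changed sign when single libraries were left out and ranged from −3.13 to 5.97.

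Same-numbered libraries deviated with correlations of −0.20 to 0.00 between NP and ESC and −0.13 to 0.46 between TETTKO and ESC, so the numbers were not taken as pairs. Not every library correlated best with its own number. With the block, 4622 genes changed in NP, 7 of the 9 Polycomb genes among them, and in TETTKO the 1 Polycomb gene was Suz12. Library sizes without TMM put 58.1% of changed NP genes higher instead of 52.4%, and 42.7% instead of 51.8% in TETTKO. Few counts stand behind Cbx8 in ESC, with 24 to 40 per library.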
